A study of Mus musculus with 6 samples.

Results

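YTHDC1 binding to the RNA of 9 genes of the actin cytoskeleton was examined in mouse myoblasts. The genes encode the cytoplasmic actins (Actb, Actg1), nonmuscle myosin heavy chains (Myh9, Myh10), tropomyosins (Tpm1, Tpm4), alpha-actinins (Actn1, Actn4) and filamin C (Flnc). They are 9 of 22380 protein-coding genes in the annotation and were chosen by name, with earlier results of these data known. Every peak whose midpoint lay inside one of these genes was taken, on the strand opposite to the gene, which is the strand on which reads from the RNA of the gene were deposited. This gave 7, 19, 7 and 37 peaks in the 4 libraries of ASC-48 hr and 289 and 300 in the 2 libraries of C2C12. They made up 0.0863 to 0.190% of all peaks in the ASC-48 hr libraries and 0.477% and 0.417% in the C2C12 libraries. On the strand of the gene itself there were 3 peaks, all in Myh10 introns in C2C12.

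ASC-48 hr are mouse satellite cells, the stem cells of skeletal muscle, activated by 48 hr in culture. C2C12 is a mouse myoblast line, in effect 1 line that cannot stand for myoblasts of several mice. For ASC-48 hr there were 2 biological replicates (B1, B2), sequenced as 2 technical libraries apiece (T1, T2), and for C2C12 there were replicates 1 and 2. The labels name the C2C12 replicates biological and the study's text names them technical, so a peak shared by both, and each SD over them, may show technical spread only. All cells were labelled WT, were irradiated with UV light, and were precipitated with the same YTHDC1 antibody (Abcam, ab122340), and no library without YTHDC1 or of input RNA was analysed here. LACE-seq (linear amplification of cDNA ends and sequencing) reads the place at which reverse transcription stopped on the crosslinked RNA. The number of C2C12 cells used was larger than that of ASC-48 hr, and all peaks counted 60540 and 71992 in C2C12 and 7925 to 19448 in ASC-48 hr. Only peak lists were used here, and they do not give the total depth. The reads in peaks were 523067 and 607366 in C2C12 and 57953 to 111729 in ASC-48 hr. The smallest peak listed had 6 reads per 20-nt bin in C2C12, 4 in ASC-48 hr B2T2 and 5 in the other ASC-48 hr libraries. For these reasons no test compares the cell types, and even if the C2C12 libraries count as biological, 2 replicates against 2 could not give an exact p below 0.333. Of 7 myoblast and satellite cell markers, 4 (Myf5, Des, Cdh15 and Itga7) had a peak shared by both C2C12 libraries. Myod1, Pax7 and Myog had none. A peak in at least 1 ASC-48 hr library was listed for 5 of the 7, all but Cdh15 and Myog. Of 6 markers of leukocytes, endothelium, fibroblasts, fat cells and macrophages, 2 had a C2C12 shared peak, Pdgfra and Pecam1, and Pecam1 alone had peaks in ASC-48 hr.

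YTHDC1 is the nuclear reader of N6-methyladenosine (m6A) in RNA and takes part in splicing and in the export of mRNA from the nucleus. The actin cytoskeleton gives myoblasts their shape and lets them crawl and fuse. Actin monomers assemble into filaments, nonmuscle myosin II pulls on them, tropomyosin lies along them and decides which proteins can bind, and alpha-actinins and filamins tie filaments to each other and to adhesion sites. In muscle fibres most of these proteins are replaced by or joined with sarcomeric relatives. Because transcript levels are not part of the peak lists, more peaks on a gene cannot be told apart from more RNA of that gene in the cells.

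All 9 genes held at least 1 peak found in both C2C12 libraries, against 21.8% of all protein-coding genes, and all 9 held an exonic one, against 15.9%. Because the genes were chosen with earlier results known, these shares and the densities below cannot be read as enrichment over other genes. A peak was counted as shared when a replicate 1 peak had 1 nt or more in common with a replicate 2 peak of the same strand. There were 154 shared peaks, of which 75 lay in coding exons (48.7%, Clopper-Pearson interval 40.6 to 56.9%), 36 in 3′ UTRs (23.4%, 16.9 to 30.9%), 4 in 5′ UTRs and 39 in introns (25.3%, 18.7 to 33.0%). These 95% intervals cover counting error across peaks only. In the other protein-coding genes, 19483 shared peaks fell 41.2% in coding exons, 19.2% in 3′ UTRs and 35.0% in introns. Myh9 alone held 67 of the 154 shared peaks and Actb held 21, Actg1 17 and Flnc 12. Actn1 held 11, Myh10 8, Tpm4 7, Actn4 6 and Tpm1 5. The number of reads was low throughout, with a median over the shared peaks of 8 reads per bin as the mean of both libraries and a highest value of 15.

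**Figure D1:**
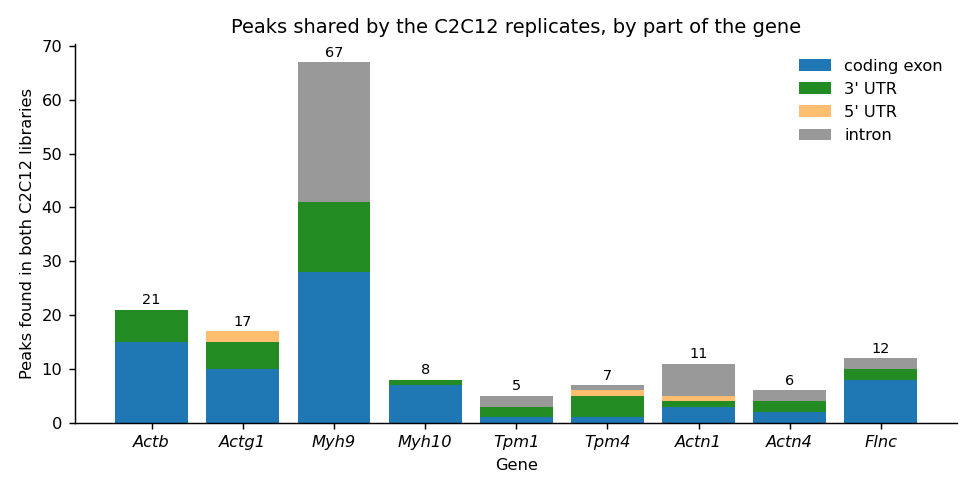
Peaks found in both C2C12 libraries on the RNA strand, stacked by part of the gene, for the 9 genes, with the total above each bar. Myh9 reaches 67 with 26 in introns, whereas Actb, Actg1 and Myh10 hold none in introns.

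Per kilobase of exon the order was different, and the cytoplasmic actins led when peaks with copies elsewhere in the genome were counted. Actb had 9.82 exonic shared peaks per kb over 2138 nt of exon, Actg1 7.43 over 2288 nt and Myh9 5.44 over 7540 nt. Tpm4 followed with 2.82 over 2128 nt. Actn1 had 1.31, Flnc 1.09, Actn4 0.962, Myh10 0.925 and Tpm1 0.628 per kb. The median over the 9 genes was 1.31 per kb, beside 0.562 over the 3539 other protein-coding genes with an exonic shared peak. Ranked over all protein-coding genes, Actb stood at 24, Actg1 at 56 and Myh9 at 118 in this density. The place of Actg1 rests on peaks with copies, since 1 of its 17 shared peaks had a unique 40-nt sequence. In Actb 18 of 21 were unique at 40 nt but 9 at 20 nt. In Myh9 63 of 67, introns included, were unique at either length. Tpm1, the lowest of the 9, had the rank 1631. Counted in each library separately, the exonic density was 10.8 and 12.6 per kb in Actb, 8.74 and 10.9 in Actg1, 8.22 and 7.96 in Myh9, and 4.70 and 5.17 in Tpm4. Myh10 (1.16 and 1.39) and Tpm1 (1.46 and 1.26) were the lowest in both. Actn1 had 3.94 and 3.42, Flnc 3.15 and 2.17 and Actn4 2.65 and 2.41. Neighbours in this order that overlapped between the libraries were Actb with Actg1, Flnc with Actn4, and Tpm1 with Myh10.

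Intronic peaks were sparse per kilobase except in Myh9 and in the very short introns of Actg1. Myh9 had 0.878 ± 0.0573 intronic peaks per kb of intron (SD, n = 2), Tpm1 0.386 ± 0.0321, Actn1 0.219 ± 0.0238, Tpm4 0.218 ± 0.0441, Flnc 0.154 ± 0.0724, Actn4 0.108 ± 0.0653 and Myh10 0.00859 in each library. The 565 nt of Actg1 intron held 1 and 2 peaks, none shared, and the 1502 nt of Actb intron held none. In Myh9 exons were 9.22 times as dense in peaks as introns, in Tpm1 3.53 times and in Actg1 3.70 times. In Actn1 the ratio was 16.8, in Flnc 17.3, in Tpm4 22.6 and in Actn4 23.4. In Myh10 it was 148, resting on 1 intronic peak in each library. Of the exonic peaks of replicate 1, 115 of 187 (61.5%, 54.1 to 68.5%) overlapped a replicate 2 peak, and of the intronic ones 39 of 102 (38.2%, 28.8 to 48.4%). Starting from replicate 2 the shares were 64.1% and 33.6%. Peaks of 10 or more reads were found again in 83.0% and 77.1% of cases and smaller ones in 46.6% and 47.6%.

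**Figure D2:**
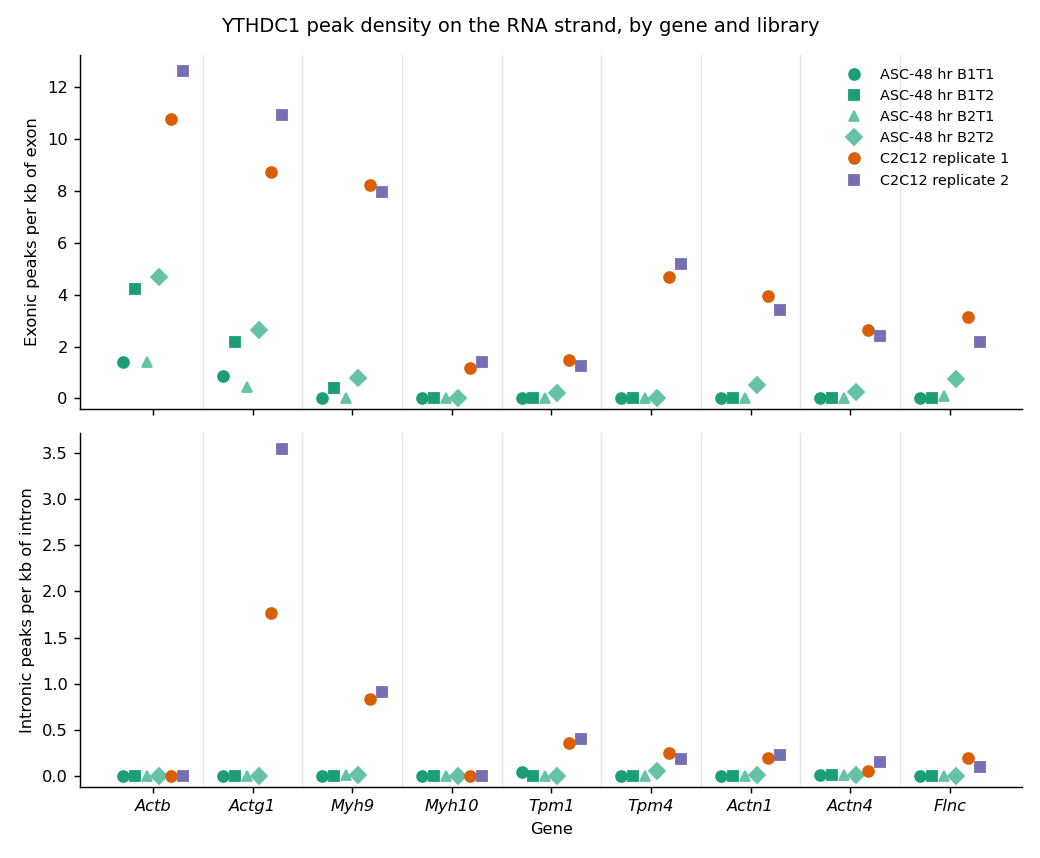
Peaks per kb of exon (top) and per kb of intron (bottom) on the RNA strand, with 1 point for each of 6 libraries and gene. The C2C12 points of Actb, Actg1 and Myh9 lie between 7.96 and 12.6 exonic peaks per kb, and ASC-48 hr points lie at or below 4.68.

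Actb (chromosome 5, 143664794 to 143668433, minus strand, mm9) encodes beta-actin. It held 23 peaks in C2C12 replicate 1 and 27 in replicate 2, and none was intronic by the annotation, although 1 shared peak lay on a coding stretch of another transcript inside intron 1 of the reference transcript. The peaks covered 40.4% and 46.0% of its exon length, and 29.2% was covered in both. Of the 21 shared peaks, 15 were coding and 6 lay in the 3′ UTR. Coding exon 4 held 7 of them in 439 nt, and exon 6, which carries the end of the coding sequence and the 3′ UTR, held another 7. Replicate 2 listed 5 peaks in exon 4, of which 1 was 180 nt wide and overlapped several of replicate 1. The 7 are therefore not 7 separate sites in both libraries. The most reads were counted in exon 4 with 15 in replicate 1 and 9.50 in replicate 2. A 3′ UTR site had 9 and 14 reads and a 40-nt site in exon 3 had 11 and 12. The peak sequences of the first 2 are printed below from the reference genome on the RNA strand, 5′ to 3′ with T for U. Each is given with 5 nt on either side of the 20-nt peak.
Actb exon 4, chr5:143666396-143666425: gtagccatccaggctgtgctgtccctgtat
Actb 3′ UTR, chr5:143664916-143664945: caggtctgaggcctcccttttttttgtccc

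Actg1 (chromosome 11, 120207004 to 120209856, minus strand) encodes gamma-actin, which differs from beta-actin at 4 of 375 residues. It held 21 and 27 peaks, of which 17 were shared, with 10 coding, 5 in the 3′ UTR and 2 in the 5′ UTR. Peaks covered 34.2% and 36.7% of its exons, and 22.7% in both libraries. As in Actb, exon 4, again 439 nt long, held many of them, here 6, and exon 6 held 7. The 3 highest were an 80-nt site in exon 6 with 8.75 and 11.5 reads per bin, a 40-nt site in exon 4 with 11 and 9.25, and a second exon 6 site with 12 and 8. The coding sequences of both genes are 88.6% identical over 375 aligned codons. Among these, 163 Actb codons (43.5%) and 108 Actg1 codons (28.8%) touched a peak in both libraries, and 52 codons did so in both genes, which is 31.9% of the Actb and 48.1% of the Actg1 codons.

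Reads were placed at up to 10 of their best-matching positions with up to 2 mismatches, so the copies of each site matter for the actins. The sequence of a shared peak extended to 40 nt occurred once in the genome for 18 of 21 Actb peaks but for 1 of 17 Actg1 peaks, and the others of Actg1 occurred up to 9 times. At 20 nt, 9 Actb and 1 Actg1 shared peaks were unique. Peaks were listed at another place of like sequence for 16 of 21 Actb and 15 of 17 Actg1 shared peaks, with a higher number of reads there in 11 and 14 of them. Nearly all Actg1 peaks therefore cannot be assigned to 1 locus, whereas most Actb peaks have a unique sequence at 40 nt, though not at 20 nt. By contrast 63 of 67 shared peaks in Myh9, 12 of 12 in Flnc and 11 of 11 in Actn1 were unique at 40 nt.

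**Figure D3:**
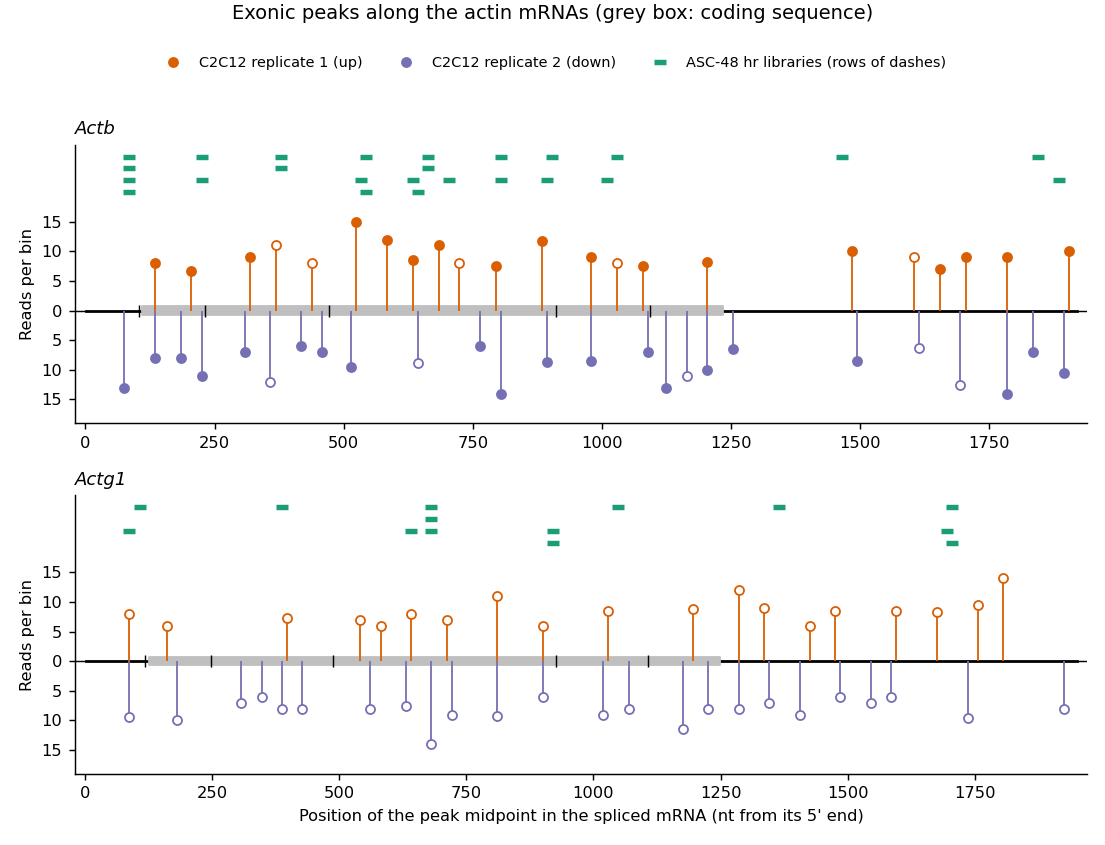
Exonic peaks along the spliced Actb and Actg1 mRNA, with reads per 20-nt bin upward for C2C12 replicate 1 and downward for replicate 2, exon borders as ticks, and dashes for the peaks of each ASC-48 hr library. Filled points mark sites with a unique 40-nt sequence and open points those with copies. The Actg1 points drawn are all open, since its 1 unique shared site lies off the reference transcript, whereas 18 of 21 shared Actb sites are unique.

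Myh9 (chromosome 15, 77591017 to 77672605, minus strand) encodes the heavy chain of nonmuscle myosin II-A, the motor of the cell cortex. It held 124 and 128 peaks in C2C12 and ranked 9 among all protein-coding genes in shared peaks. Of its 67 shared peaks 28 were coding, 26 intronic and 13 in the 3′ UTR, where the density was 9.89 per kb against 4.68 in coding sequence. Shared peaks lay in 23 of its 41 exons. The highest was in the 3′ UTR with 14 and 10.5 reads, followed by sites in intron 18 with 14 and 10 and in intron 1 with 13 and 11. Among the intronic shared peaks 13 lay in intron 3, 4 in intron 1 and 4 in intron 5. Intron 3 (10839 nt) had 1.2 shared peaks per kb and intron 5 (3614 nt) 1.11, while intron 1, the longest with 28725 nt, had 0.139. In replicate 1 the 3 introns held 27, 8 and 17 peaks and in replicate 2 they held 27, 7 and 19. Of the 26 intronic shared peaks 23 lay over 200 nt from any exon end of the protein-coding transcripts. In exons of annotated noncoding transcripts of the gene lay 6 of the 26, and distances to the splice sites of those transcripts were not measured.

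Myh10 (chromosome 11, 68505061 to 68630134, plus strand) encodes the heavy chain of nonmuscle myosin II-B. Its introns are longer, 116427 nt against 74049 nt, and its exons too, but it held 11 and 13 peaks. All 8 shared peaks were exonic, with 7 coding and 1 in the 3′ UTR. An exon 12 site had 8 and 9 reads. Its introns held 1 peak in each library, in introns 5 and 13. Over 1959 aligned codons the proteins are 77.8% identical. In Myh9 240 codons (12.3%) touched a peak in both libraries and in Myh10 51 (2.60%). In both genes 6 aligned codons did so, which is 11.8% of the Myh10 codons.

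Exon 13 held the highest peak of Myh10 and is shared almost fully with Myh9. It has 174 nt in both genes and differs at 6 of them, and 122 nt in a row are the same. The stretch begins with the 30 nt printed here.
Myh9 exon 13, chr15:77617061-77617090: ctgaactccttcgagcagctgtgcatcaac
Myh10 exon 13, chr11:68581701-68581730: ctgaactccttcgagcagctgtgcatcaac
Each C2C12 library listed 3 peaks in this exon in each gene. Reads from the inside of the stretch match either gene, and 1 shared Myh9 peak (7 and 8 reads) and 2 shared Myh10 peaks (7 and 6.5 reads, 10 and 7 reads) lay wholly within it. The strongest peak of all 9 genes, with 17 and 13 reads, began at the end of the stretch in Myh10 and lay mostly beyond it, and its sequence occurred once in the genome. Near the matching place in Myh9 a shared peak had 12 and 7 reads. The printed sequence of the Myh10 peak holds the letters GGAC, the core of the m6A consensus, in capitals, with the last letter in the flank just past the peak.
Myh10 exon 13, chr11:68581816-68581845: ggaactttatcgacttcggcctGGACctgc

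**Figure D4:**
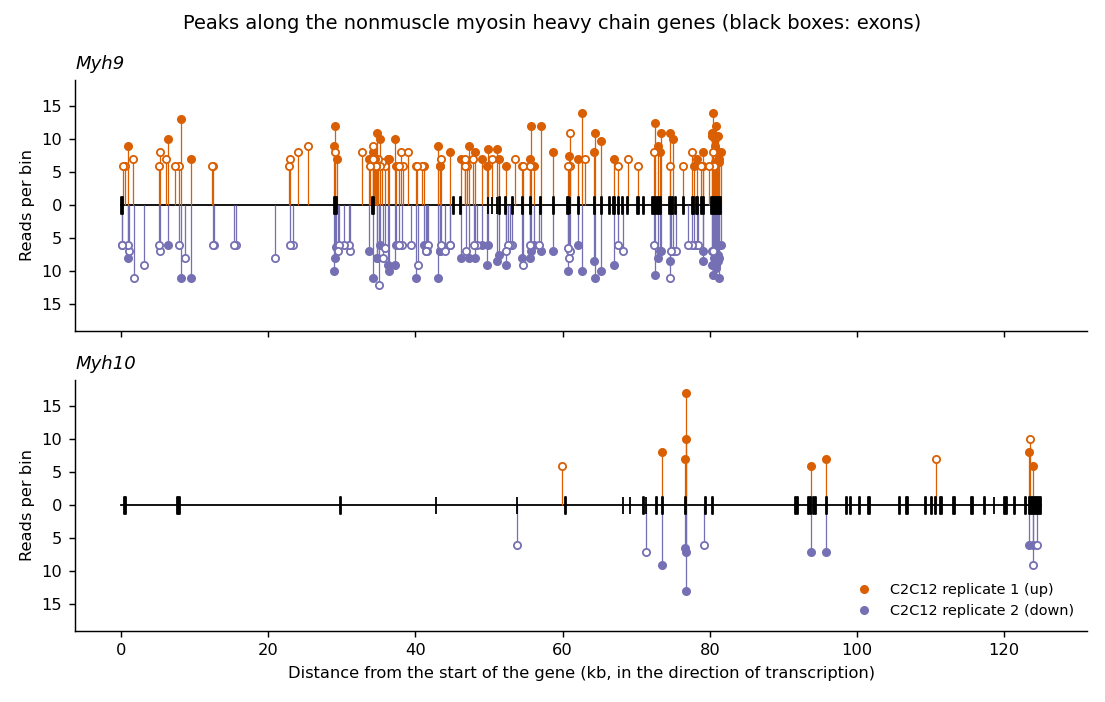
C2C12 peaks on the RNA strand along Myh9 and Myh10 by distance from the start of the gene, with reads per 20-nt bin upward for replicate 1 and downward for replicate 2. Filled points are found in the other replicate and open points are not. Myh9 peaks lie in exons and introns, and the Myh10 introns hold 1 peak in each library.

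Tpm1 (chromosome 9, 66870397 to 66897213, minus strand) and Tpm4 (chromosome 8, 74658874 to 74677041, plus strand) encode tropomyosins, coiled coils that run along the actin filament. Tpm1 makes muscle and nonmuscle isoforms by alternative splicing, while 1 protein-coding transcript of Tpm4 is annotated. Both had the same number of peaks in each C2C12 library, 15 in Tpm1 and 14 in Tpm4, of which 5 and 7 were shared. Most exonic peaks of Tpm4 lay in the 3′ UTR, 8 of 10 and 9 of 11, and 4 of its shared peaks did. These include its 2 highest sites, with 15 and 13 reads and with 13 and 12 reads, and an exon 2 site had 15 and 9. In Tpm1 the highest site lay in intron 8 with 12 reads in each library. A second intron 8 site had 6 and 10 and a 3′ UTR site 9 and 7. The coding sequence of Tpm1 held 1 shared peak in exon 3. The pair share 74.8% of 242 aligned residues. Of these codons, 7 in Tpm1 (2.89%) and 8 in Tpm4 (3.31%) touched a peak in both libraries. None did so in both genes, but too few were covered for this to be read.
Tpm4 3′ UTR, chr8:74676816-74676845: ggccaactcaagtttacagtcctgactgaa
Tpm1 intron 8, chr9:66872936-66872965: cggcgcccagcctgagtgtcgtcctcttga

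Actn1 (chromosome 12, 81268529 to 81361358, minus strand) and Actn4 (chromosome 7, 29678267 to 29747359, minus strand) encode the nonmuscle alpha-actinins, which crosslink actin filaments. Actn1 held 33 and 34 peaks and Actn4 15 and 20, of which 11 and 6 were shared. In Actn1 6 of the shared peaks were intronic, 5 of them in intron 1 (50513 nt), where the libraries listed 14 and 17 peaks. Its 3 highest shared sites lay in exon 4 (6.50 and 11 reads), in the 5′ UTR of exon 1 (10 and 7) and in intron 1 (7 and 9). Actn4 also has a long intron 1 (42950 nt), which held 4 and 9 peaks of which 2 were shared. Its highest sites lay in the 3′ UTR with 11 and 10 reads, in exon 14 with 10 in each library and in intron 1 with 9 and 7. The intron 1 site is a stretch of T whose 20 nt occur 92 times in the genome. The proteins are 85.9% identical over 892 aligned codons. Of these, 26 in Actn1 (2.91%) and 13 in Actn4 (1.46%) touched a peak in both libraries. None did so in both genes, but so few codons were covered that this lack of overlap cannot be read.

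Flnc (chromosome 6, 29383153 to 29411888, plus strand) encodes filamin C, the filamin of muscle, which lies at Z-discs and cell attachment sites. It held 33 peaks in replicate 1 and 22 in replicate 2, the largest gap between the C2C12 libraries among the 9 genes, although replicate 2 had more peaks in all. Of 12 shared peaks 8 were coding, 2 lay in the 3′ UTR and 2 in introns. The highest was in exon 21 with 14 and 10 reads. A 3′ UTR site had 13 and 8. A peak with 9 and 12 reads had its midpoint in intron 16 at 1 nt from exon 17, so it spanned the 3′ splice site, and it is printed for that reason. The same held for a Myh9 peak with 9 and 8 reads at 1 nt from the end of intron 30. Within 20 nt of an exon end of the protein-coding transcripts there were 3 intronic shared peaks in the 9 genes. The third, in Actn1 intron 8, was 5 nt away.
Flnc intron 16 and exon 17, chr6:29396036-29396065: cttttccccatccaggagatccctgccagt

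**Figure D5:**
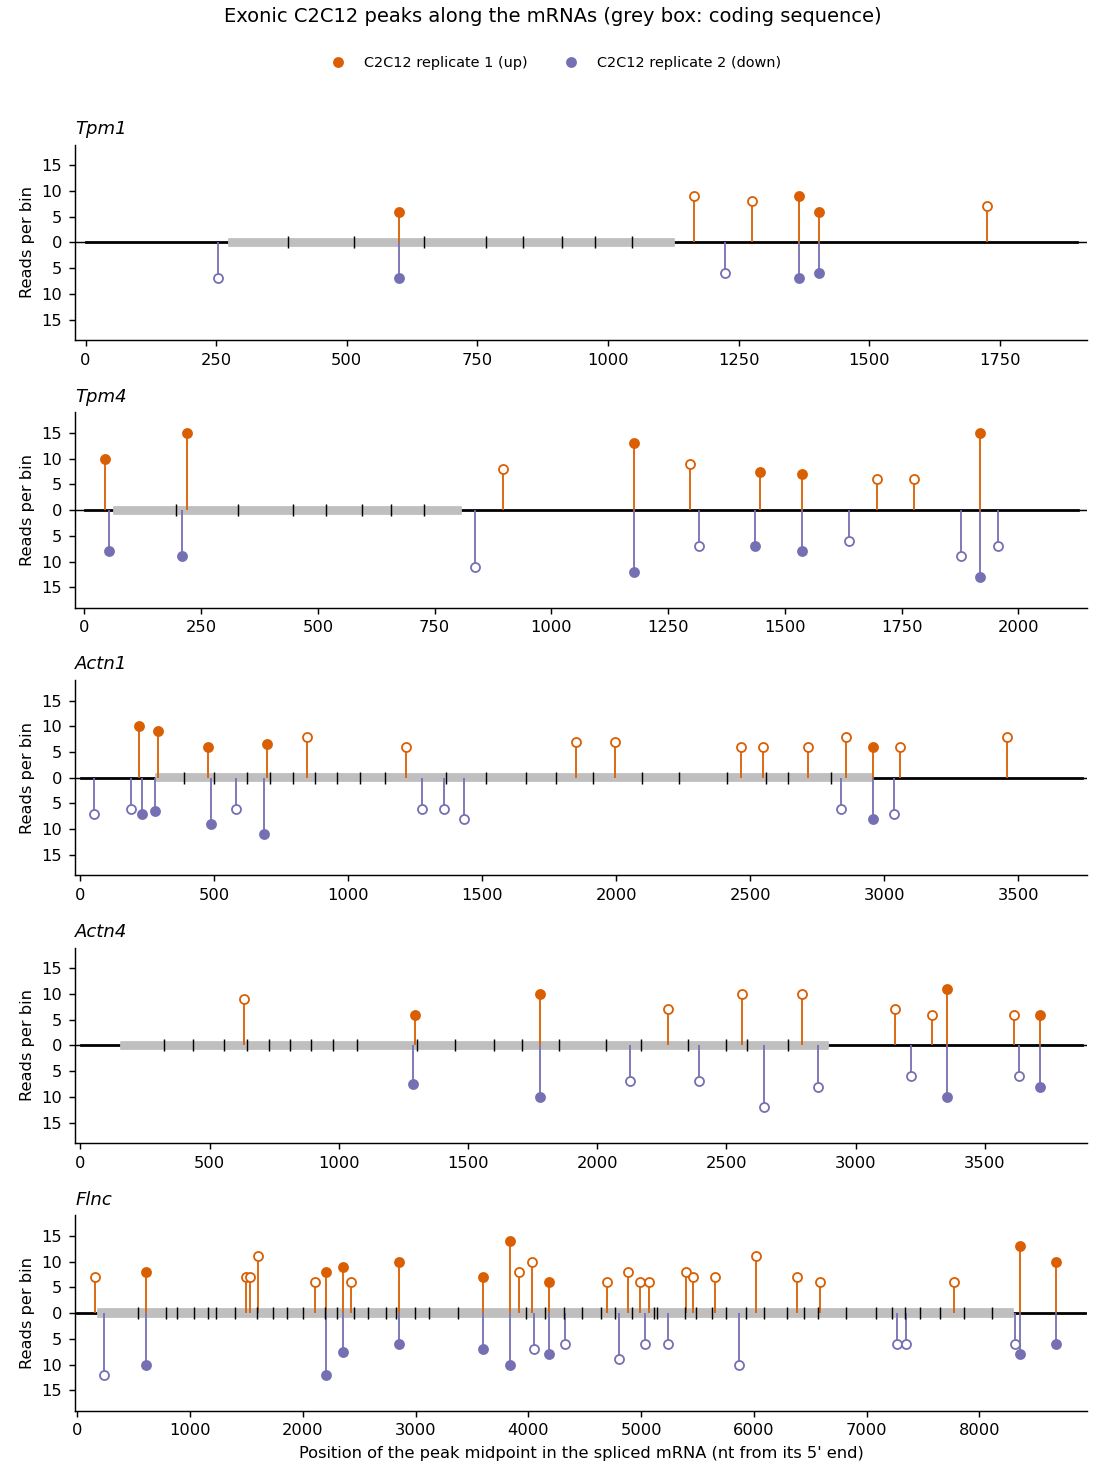
Exonic C2C12 peaks along the spliced Tpm1, Tpm4, Actn1, Actn4 and Flnc mRNA, with reads per 20-nt bin upward for replicate 1 and downward for replicate 2 and exon borders as ticks. Filled points are found in the other replicate. The Tpm4 points crowd in the 3′ UTR, and the Flnc points lie mostly in the coding sequence.

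An exon base was called alternative where another annotated protein-coding transcript of the gene spans it as an intron. Among the shared peaks 15 of 154 (9.74%, 5.55 to 15.6%) lay on such bases, beside 6.91% in the other protein-coding genes. They were 8 in Actg1, 3 in Actb, 3 in Myh9 and 1 in Flnc. The share depends on how much exon is annotated as alternative, which in Actg1 is 1078 of 2288 nt. It also rests on peaks with copies, since 16 of the 17 Actg1 shared peaks had a repeated 40-nt sequence. Nearly all of the 8 in Actg1 therefore cannot be assigned to this gene. Shared peaks per kb of alternative and of other exon bases were 7.42 and 7.44 in Actg1 and 6.52 and 10.7 in Actb. In Myh9 they were 8.88 and 5.28, and in Flnc 7.58, from its 1 peak, and 0.993. Most lay on exons of the reference transcript that other annotated transcripts leave out, 6 in exon 4 and 1 in exon 3 of Actg1, 2 in exon 3 of Actb, 2 in exon 19 and 1 in exon 18 of Myh9. In each actin gene 1 more lay inside intron 1 of the reference transcript, on an exon of another transcript. The Flnc peak, with 9 and 7 reads, lay at the start of a 99-nt exon (29402799 to 29402897) between exons 30 and 31 of the reference transcript, which skips it. A second shared peak with 7 reads in each library lay before it in intron 30. The start of the exon is printed with the last 3 nt of the preceding intron.
Flnc alternative exon, chr6:29402796-29402825: caggcctgtgacccgctgcctcacgtggag
Tpm1 has 3084 alternative exon nt, the most of the 9 genes, and held 1 alternative peak in each library, at different places, so that none was shared. Myh10 (856 nt), Actn4 (366 nt) and Actn1 (147 nt) held no peak on alternative bases in C2C12.

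The letters GGAC, searched on the RNA strand from 20 nt before to 20 nt after each peak, occurred at 38 of 154 shared peaks (24.7%, 18.1 to 32.3%) and at 19.8% of the shared peaks of other protein-coding genes. On the opposite strand the shares were 25.3% and 24.5%. Wider peaks give a longer window, so the windows compared between the sets of genes differ in length. In the 9 genes 115 of the 154 shared peaks were 1 bin wide, with 11 of 21 in Actb and 7 of 17 in Actg1. Among all peaks, shared or not, 6.58% in C2C12 replicate 1 and 6.29% in replicate 2 were wider than 1 bin. The widths of the shared peaks of other genes are not reported here, so how far the windows differ is not known. In coding exons 23 of 75 peaks held GGAC (30.7%, against 24.2% in the other genes), in 3′ UTRs 11 of 36 (30.6% against 19.4%) and in introns 4 of 39 (10.3% against 14.3%). The opposite strand held it at 15 coding peaks (20% against 22.8%), 14 in 3′ UTRs (38.9% against 24.3%) and 9 in introns (23.1% against 25.8%), so in 3′ UTRs the letters were more frequent there than on the RNA strand. By gene the letters stood at 12 of 67 peaks in Myh9, 6 of 21 in Actb, 6 of 17 in Actg1, 5 of 12 in Flnc and 0 of 5 in Tpm1. Runs of 10 or more G were near none of these shared peaks.

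In ASC-48 hr all 9 genes held a peak in at least 1 library, against 25.0% of all protein-coding genes, and 7 did without B2T2. The choice of the genes limits this comparison as it does that in C2C12. B1T1 had peaks in 4 genes, B1T2 in 5, B2T1 in 5 and B2T2 in 8. Of the 37 peaks in B2T2, 18 had 4 reads, below the smallest peak that the other libraries list. Actin peaks made up 5 of 7 in B1T1, 14 of 19 in B1T2, 4 of 7 in B2T1 and 16 of 37 in B2T2, while in C2C12 they made up 44 of 289 and 54 of 300. Actb held 3, 9, 3 and 10 peaks and Actg1 2, 5, 1 and 6, in the order B1T1, B1T2, B2T1 and B2T2. Myh9, the leading gene in C2C12, held 0, 3, 1 and 7. Flnc held 0, 0, 1 and 7, and 5 of the B2T2 peaks had 4 reads. Actn1 had 3 peaks, all in B2T2, Actn4 1, 1, 1 and 2, Tpm1 1 each in B1T1 and B2T2, Tpm4 1 in B2T2 and Myh10 1 in B1T2.

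Actb was the single gene of the 9 with a peak shared by all 4 ASC-48 hr libraries, and 2.47% of all protein-coding genes had one. This peak lay in exon 1, in the 5′ UTR, 19 nt from the first splice site (chr5:143668341-143668360), with 6, 7, 6 and 8 reads (6.75 ± 0.957, SD, n = 4 libraries of 2 biological replicates). C2C12 replicate 2 held a peak there with 13 reads and replicate 1 held none. Its 20 nt occur once in the genome. Actg1 also had a C2C12 shared peak in the 5′ UTR of its exon 1, with 8 reads in replicate 1 and 9.33 in replicate 2. ASC-48 hr B1T2 held a peak there with 6 reads, its midpoint at nt 87 of the 118 nt of this exon. B2T2 held the next bin with 7 reads. The 20 nt of the B1T2 peak occur 3 times in the genome, unlike the Actb site. An Actg1 exon 4 site at 5 nt from the splice site, with 6 and 7 reads in B1T1 and B1T2, occurs once in the genome and held no C2C12 peak. Other sites held by 3 ASC-48 hr libraries were an Actb exon 4 site (6, 8.5 and 7 reads in B1T1, B1T2 and B2T2), an Actg1 exon 4 site (5, 9 and 9 reads in B1T2, B2T1 and B2T2) and an Actg1 3′ UTR site (6, 6 and 4 reads in B1T1, B1T2 and B2T2).
Actb exon 1, chr5:143668336-143668365: cagctccttcgttgccggtccacacccgcc
Actg1 exon 1, chr11:120209756-120209785: acactgcgcttcttgccgctcctccgtcgc
Actb exon 4, chr5:143666376-143666405: gtccctgtatgcctctggtcgtaccacagg
Actg1 exon 4, chr11:120208456-120208485: ctggccgGGACctgacagactacctcatga

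Over the 4 libraries, 70 peaks were listed, counting a site once for each library that held it. Of these 60 were exonic, and 40 of the exonic ones overlapped a C2C12 peak, 21 of 25 in Actb, 12 of 14 in Actg1 and 5 of 9 in Myh9. Of the 10 intronic ones 2 did. The 8 Flnc peaks were all exonic and 1 overlapped a C2C12 peak. The 5 Actn4 peaks overlapped none, and 1 of its sites, in intron 1, was held by both B1T1 and B1T2 with 5 reads each. Of all 70 peaks, 19 overlapped a peak in both C2C12 libraries and 23 in 1 of them only, in Actb 9 and 12. C2C12 peaks of replicates 1 and 2 covered 40.4% and 46.0% of the exon length of Actb. In Actg1 they covered 34.2% and 36.7%, and in Flnc 6.71% and 4.67%. The overlap that such coverage alone would give was not computed, so the shares cannot be compared between genes. No ASC-48 hr peak in the 9 genes lay on a G run.

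Other genes of the actin cytoskeleton were counted from a list of 54. Of these 33 held a C2C12 shared peak, 325 shared peaks in all, and 32 held a peak in at least 1 ASC-48 hr library. Among them were Flna, which encodes filamin A, with 54 shared peaks, Vcl (16), which encodes vinculin, Gsn (15), which encodes the filament-severing gelsolin, and Zyx (15), which encodes zyxin. Per kb of exon Flna had 6.25 exonic shared peaks, beside 1.09 in Flnc. Of the sarcomeric genes Actc1, Myh1, Myh2, Myh3, Myh7, Myh8, Actn2 and Actn3 no peak was listed in C2C12, while Acta1 had 2 and Myh4 had 1 in a single library. The protein-coding genes nearest to the median of the 9 genes in log2(exonic peaks per kb + 0.1) over the 6 libraries were Scarf2, Kifc1, Mfge8, Slc39a7 and Gm9008, at Euclidean distances of 0.338 to 0.406. They had 1 to 6 C2C12 shared peaks. Their exonic ASC-48 hr peaks lay in B2T2 alone, like those of the median gene, which follows from how they were chosen.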

How the data were processed

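Peak lists of 6 LACE-seq libraries were used. The authors trimmed reads with cutadapt 1.15, removed pre-rRNA reads, placed the rest on mm9 with Bowtie 1.2.3 (best matches only, up to 2 mismatches and 10 positions per read) and called peaks per library with Piranha in 20-nt bins at a p threshold of 0.001, settings stated for ASCs. Duplicate removal is not given in the sources used here. The signal deposited by the authors is reads per 20-nt bin without normalization (wider peaks carry the mean of their bins), and the deposited p-value is Piranha's, unadjusted. Reads with several positions can add peaks at each copy.

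Peaks were assigned by midpoint with GENCODE vM1 on NCBIM37 (mm9), in the order coding exon, 3′ UTR, 5′ UTR, intron over protein-coding transcripts. Exon numbers are those of the reference transcript, the first by name. Genomic copies of the central 20 nt and of 40 nt were counted on both strands. Overlap, part and copy counts were tested on simulated data (20 of 20 checks gave the known answer). Python 3.11.15, pandas 2.3.3, scipy 1.17.1 and matplotlib 3.10.9 were used. Counts and shares were described without tests. All 9 genes, the 3 highest shared peaks of each, the related genes with most shared peaks (4 of 5, the other is not reported here) and the 5 nearest genes are named. The genes and lists were chosen with earlier results of these data known.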

Additional observations from a re-analysis of the deposited data

Results flagged for a closer look

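In ASC-48 hr, 1 library stood apart from the other three in 5 of 10 counts examined. For continuous values chance gives such a gap in about 1 of 20 groups, but not for counts this close to 0, where a single peak in all must set 1 library apart, so the number of gaps cannot be read against that rate. In B2T2, the highest library, there were 3 Actn1 peaks, 2 Actn4 peaks, 7 Flnc peaks and 1 Tpm4 peak, and in B1T2 there was 1 Myh10 peak. Of those in B2T2, peaks of 4 reads, which the other libraries do not list, were 2 in Actn1, 1 in Actn4, 5 in Flnc and 1 in Tpm4. In Myh10 peaks were listed on the strand of the gene itself, 1 in C2C12 replicate 1 (intron 3) and 2 in replicate 2 (introns 2 and 12), each with 6 reads. They were not shared, and their 20-nt sequences occur 163, 44817 and 42077 times in the genome.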

How the results depend on the processing

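The number of C2C12 shared peaks in the 9 genes (154) fell to 11 with a p of at most 0.00001 in each library, to 14 with at least 10 reads per bin in each, and to 2 when the 20-nt sequence had to occur once with up to 2 mismatches allowed. The median per kb of exon (1.31) was then 0.116, 0.116 and 0 in turn, and the genes with an ASC-48 hr peak (9) were 4, 1 and 2. Nearly every 20-nt sequence has such near copies, so the last setting leaves little to read. Using all peaks of a single C2C12 library in place of shared peaks gave 289 to 300 peaks, a coding share of 39.3 to 43.9% and a median of 3.42 to 3.94 per kb, since peaks need then not be found again. Leaving out each ASC-48 hr library gave 7 to 9 genes. With the 40-nt sequence required once in the genome, chosen after seeing the data, 127 peaks were left with a coding share of 47.2%, and Actg1 fell from 17 to 1. With 20 nt required once, 115 were left, 9 of them in Actb. Leaving out G runs or counting either strand left these 4 values within the limits set for them. Overlap of at least 50%, the transcripts that define exons and overlap with the part did so for the 3 C2C12 values and were not run for the ASC-48 hr genes. Over single genes, 64 of 108 values stayed within 1.5 times the main count. No paired analysis was possible because no result came from a test and nothing links the same-numbered replicates of the 2 cell types. Low reads per bin, an unknown depth and the absence of a control library limit what these lists can show.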
